A study of Mus musculus with 8 samples.

Results

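Imprinted genes are expressed mainly from the allele of one parent. The choice of allele rests on DNA methylation that is laid down in the egg or the sperm at imprinting control regions, kept after fertilisation by ZFP57, TRIM28 and DNMT1, and in several clusters relayed to neighbouring genes by a long non-coding RNA. Many paternally expressed genes, such as Igf2, favour growth of the fetus, and many maternally expressed genes, such as Igf2r, Grb10 and Cdkn1c, restrain it. The kidney depends on some of them during development: loss of Cdkn1c, for instance, disturbs formation of the renal medulla.

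The 35 genes described here were listed by symbol as genes imprinted in the mouse, not by a cut on their values, and probes were assigned to them through the RefSeq accession given for each probe. By general knowledge of their imprints, 19 are expressed from the paternal and 15 from the maternal allele, while Gnas is expressed from either, depending on the transcript and the tissue. For some the imprint is known only in certain tissues, such as the placenta for Ascl2 and Cd81 and neurons for Ube3a. Of the 35 genes, 33 had a probe (57 probes in all) and 30 were bright enough to be tested, among 13969 tested genes of 20887 named ones. H19 and Rian had no matched probe. Phlda2, Nap1l5 and Rasgrf1 lay below the filter: outside the first array of each group, the red signals of their probes were 57 to 69 units in KO and 59.5 to 73 in WT, against medians of 58 to 61 for the negative control spots. The arrays measured total transcript and could not tell the parental alleles apart.

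Expression was measured in kidney pairs of C57BL/6 embryos at embryonic day 16.5, in 4 wildtype controls (WT) and 4 embryos with DOT1-null nephron progenitor cells (KO), in which Dot1, taken as the histone methyltransferase gene Dot1l, was deleted conditionally in Six2-positive cells. The deletion thus concerned one lineage, whereas RNA came from the whole organ with its stroma, vessels, blood cells and ureteric epithelium. Every array set Cy5-labelled RNA of a sample (the red channel) against RNA of WT1 in Cy3 (green), so a level below is a log2 ratio of that sample over WT1, and the WT1 array carried one RNA in both colours. In such whole-organ RNA, fewer cells of a type and less RNA per cell cannot be told apart.

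Several features of the series bear on all values. The red negative control spots had a median of 1361 for WT1 and 478.25 for KO1, and on both the green signals also correlated less with those of other arrays (median r across probes of 0.562 and 0.899, against 0.996 to 0.997 elsewhere). By Xist and Ddx3y all 4 KO embryos and WT2 were male, and WT1, WT3 and WT4 were female. All WT arrays lay in one row of the slide and all KO arrays in the other, so slide row and genotype cannot be told apart. For the Dot1l probe WT1 to WT4 gave ratios of -0.23, -0.21, -0.09 and -0.09, and KO1 to KO4 gave -0.13, -0.04, -0.21 and -0.11. The groups overlapped (0.03 ± 0.08, SE; limma adjusted p = 0.924, exact permutation p = 0.657). The position of this probe relative to the deleted part is not known here, so it does not check the labels. Of 10 nephron progenitor markers 4 were lower in KO (list median -0.29, with medians per array of -0.13 to 0.09 in WT and -0.45 to -0.27 in KO). Of 11 stromal markers 5 were higher, and of 6 tested macrophage markers 3 were higher. Of 9 podocyte markers none passed, and 1 had an unadjusted p under 0.05. Over all tested genes 0.544% were lower and 1.57% higher in KO by limma's adjusted p, and 14.5% had an unadjusted p under 0.05.

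Of the 30 tested imprinted genes, 2 differed between KO and WT in limma's test over all genes, Plagl1 and Slc22a18, and both were higher in KO. This was 2 of 30 where 2.11% of all tested genes passed (295 genes: 1.57% higher and 0.544% lower in KO). Adding a term for the replicate number (a block) raised the overall count to 554, and 2 imprinted genes passed again, Plagl1 and Slc22a18. An unadjusted p under 0.05 was reached by 6 of the 30 genes, against 14.5% of all genes. The 4 KO values lay entirely above the 4 WT values for 5 genes, Plagl1, Slc22a18, Igf2, Magel2 and Zdbf2, and entirely below them for none. Over all genes, 9.26% had such separate groups. The 3 dim members entered none of these counts. Differences were above 0 for 20 and below 0 for 10 of the 30 genes, with a median of 0.04 on the log2 scale, while over all genes 8287 of 13969 were above 0 and the median was 0.03.

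**Figure D1:**
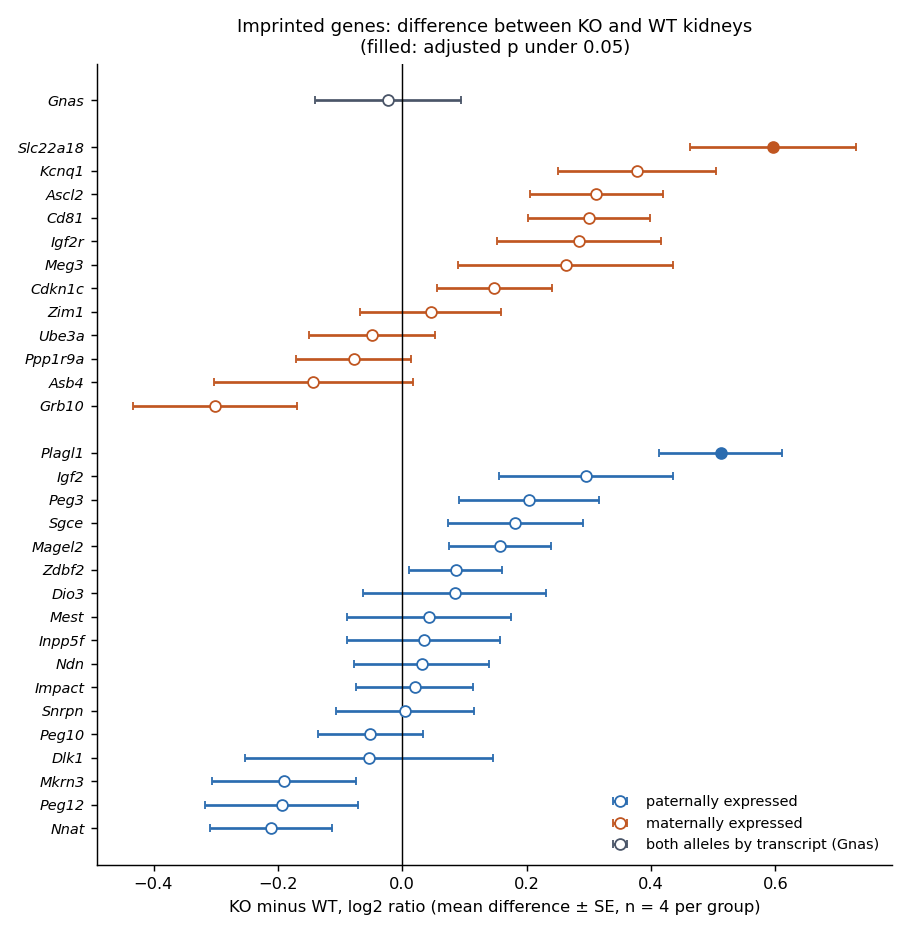
Difference between KO and WT (log2 ratio, mean ± SE, 4 arrays per group) for the 30 tested imprinted genes, grouped by the parental allele that is expressed. Only Slc22a18 (0.60) and Plagl1 (0.51), drawn as filled points, had an adjusted p under 0.05, and Grb10 (-0.30) had the lowest value.

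The sequences before the transcription starts of both genes that rose are shown with those of Ascl2 and Cd81, which lie with Slc22a18 in the Kcnq1 domain, to show how they differ in CpG dinucleotides, the sites of DNA methylation. They are stretches before a start site. None was chosen as an imprinting control region, and whether any lies within one was not examined. The stretches hold the 250 bases upstream of the RefSeq start, in the direction of the gene, with each CpG in capitals. On GRCm38.p6 they are chr10:13090582-13090831 (plus strand) for Plagl1, chr7:143473539-143473788 (plus strand) for Slc22a18, chr7:142969265-142969514 (minus strand) for Ascl2 and chr7:143052500-143052749 (plus strand) for Cd81.
Plagl1: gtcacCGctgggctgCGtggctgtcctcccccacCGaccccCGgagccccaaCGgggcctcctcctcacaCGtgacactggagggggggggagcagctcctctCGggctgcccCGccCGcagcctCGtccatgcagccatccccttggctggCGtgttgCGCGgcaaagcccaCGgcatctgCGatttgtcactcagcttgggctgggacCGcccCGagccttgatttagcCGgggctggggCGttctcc
Slc22a18: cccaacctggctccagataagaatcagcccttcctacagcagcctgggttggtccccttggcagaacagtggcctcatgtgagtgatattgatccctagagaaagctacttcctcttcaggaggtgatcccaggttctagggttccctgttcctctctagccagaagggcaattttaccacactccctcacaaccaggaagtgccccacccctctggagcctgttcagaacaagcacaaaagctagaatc
Ascl2: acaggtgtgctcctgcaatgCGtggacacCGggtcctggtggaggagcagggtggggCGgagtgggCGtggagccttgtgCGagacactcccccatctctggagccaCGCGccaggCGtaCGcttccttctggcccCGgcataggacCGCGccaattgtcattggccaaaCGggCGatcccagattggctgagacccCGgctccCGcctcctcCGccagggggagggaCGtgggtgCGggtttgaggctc
Cd81: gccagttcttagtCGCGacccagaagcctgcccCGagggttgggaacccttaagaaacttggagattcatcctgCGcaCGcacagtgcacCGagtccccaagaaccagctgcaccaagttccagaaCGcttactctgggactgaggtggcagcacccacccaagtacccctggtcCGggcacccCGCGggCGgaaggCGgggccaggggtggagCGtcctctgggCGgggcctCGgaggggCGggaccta
The Plagl1 stretch held 19 CpGs in 250 bases, more than 80.3% of the 32851 RefSeq promoter stretches of this length, whose median was 6. Slc22a18 had none, Ascl2 had 19 and Cd81 had 16. The hexamer TGCCGC, which ZFP57 binds when it is methylated, was searched on both strands, with overlapping matches counted: it occurred once in the Plagl1 stretch, in none of the other 3, in 7 of 45 stretches of the 29 imprinted genes that have an entry (15.6%) and in 8.68% of all stretches. Of the 7, Mest held 2, and Plagl1, Meg3, Nap1l5, Zdbf2 and Zim1 held 1 each. Both Mest stretches had 14 CpGs and 2 hexamers, and whether they overlap was not examined. The hexamer contains a CpG, and the 45 stretches had a median of 10 CpGs, against 6 for all stretches. The palindrome GGGGCCCC, a binding site described for the PLAGL1 protein, was absent from all 4 stretches and occurred in 3 of the 45 (6.67%; Peg3, Ppp1r9a and Rasgrf1), against 0.889% of all. These matches describe letters only. H19, Cdkn1c, Kcnq1, Peg10, Sgce and Impact had no entry.

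Plagl1 encodes a zinc finger transcription factor that arrests the cell cycle and regulates other imprinted genes, and it is expressed from the paternal allele. Its log2 ratios were -0.20, 0.14, 0.15 and 0.12 in WT1 to WT4 and 0.67, 0.49, 0.50 and 0.60 in KO1 to KO4. All KO arrays lay above all WT arrays, and the self-hybridised WT1 array was the lowest. The difference was 0.51 ± 0.10 (SE, n = 4 per group, 1.43-fold), with an adjusted p of 0.0203 in limma. Exact permutation gave p = 0.0286 (two-sided), the smallest that 70 splits of the arrays can give. Every gene with fully separate groups gets this value, and 9.26% of all genes had such groups. It thus adds nothing beyond the separation itself. The call was lost without KO2 (adjusted p = 0.0507), without KO4 (0.0846), without WT1 and KO1 together (0.39, adjusted p = 0.0551), and with sex as a model term (0.42, adjusted p = 0.349). Other settings that ended it were the scanner software's ratios (adjusted p = 0.0804), the deposited series values, median centring and the red channel alone, and it held in 11 of 21 alternatives. In the red channel alone without WT1 and KO1 the difference was 0.25 (adjusted p = 0.236).

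Plagl1 was measured by 4 probes. Both bright ones, with median red signals of 16312.5 and 13039 units over the 6 arrays numbered 2 to 4, differed by 0.51 and 0.48 with separate groups. The dim ones, at 257.5 and 165 units, differed by 0.10 and 0.04 and their groups overlapped. All 4 carry the same accession, and which transcripts each detects was not analysed here. Averaged over the 4 probes the difference was 0.28 (adjusted p = 0.113). In a test of every kept probe on its own, the brightest passed (adjusted p = 0.0232) and the second did not (adjusted p = 0.0527).

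**Figure D2:**
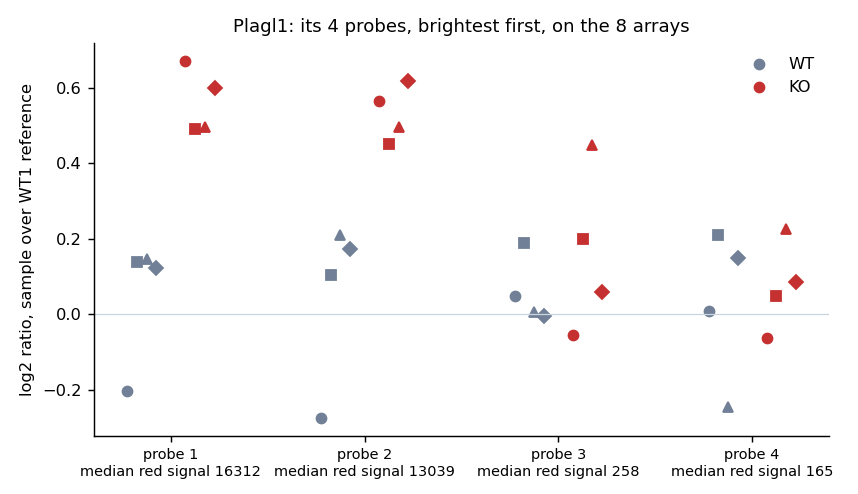
Log2 ratio over the WT1 reference (y axis) for the 4 Plagl1 probes, ordered by their median red signal on arrays 2 to 4 of both groups; each symbol is an array, and the symbol shapes stand for replicates 1 to 4. KO and WT separate at the probes of 16312.5 and 13039 units and overlap at those of 257.5 and 165 units.

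Among the 10 tested genes that flank Plagl1 on chromosome 10, 5 on each side in the RefSeq order, none passed the threshold. Over all genes 2.11% did. Of the 10, 2 were above 0, and the median difference was -0.04. Their range was -0.16 (Adat2) to 0.11 (Fuca2). The 11 stromal markers, of which 5 were higher in KO, had medians of -0.14 to 0.01 on the WT arrays and 0.27 to 0.50 on the KO arrays. KO1 had the highest median, as it had the highest Plagl1 value. It was the highest KO array for 4 of the 11 markers, against 6 for KO3. Over all 13969 genes these counts were 3228 for KO1 and 4352 for KO3. On the WT side the lowest stromal median was on WT4, whereas Plagl1 was lowest on WT1. Macrophage markers had medians of -0.17 to -0.03 in WT and 0.28 to 0.41 in KO. The part of either cell type in the Plagl1 result was not tested.

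Slc22a18 encodes an organic cation transporter-like membrane protein of tubular epithelium and is expressed from the maternal allele under the Kcnq1ot1 control region. Its log2 ratios were 0.04, 0.03, 0.04 and -0.15 in WT1 to WT4 and 0.27, 0.39, 0.93 and 0.75 in KO1 to KO4. The KO values were all above the WT values but spread over a wide range, with KO3 highest. The difference was 0.60 ± 0.13 (SE, 1.51-fold), with an adjusted p of 0.0407 in limma. Exact permutation gave p = 0.0286 (two-sided), the value that any gene with fully separate groups gets from 70 splits. The call was held by a narrow margin: of the 8 fits that each leave out 1 array, only that without KO1 passed (0.70, adjusted p = 0.0129), and the others gave differences of 0.48 to 0.66. Their adjusted p was 0.0892, 0.0893, 0.0705 and 0.12 without WT1, WT2, WT3 and WT4, and 0.0525, 0.0712 and 0.152 without KO2, KO3 and KO4. It passed without WT1 and KO1 together (0.72, adjusted p = 0.0389) and did not pass with sex as a term (0.56, adjusted p = 0.359). Nor did it pass with the software's ratios (adjusted p = 0.0842), the deposited series values, median centring or the red channel alone, with all arrays or without WT1 and KO1. The call held in 8 of 21 alternatives.

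The proximal tubule markers were highest on KO3 among the KO arrays in 8 of 8 genes and lowest on WT4 among the WT arrays in 8 of 8, the same arrays that were highest and lowest for Slc22a18. Their medians per array ranged from -0.79 to -0.05 in WT and from -0.29 to 0.65 in KO. Over all 13969 genes KO3 was the highest KO array for 4352 and WT4 the lowest WT array for 2578. The differences of all 8 markers were above 0, with a median of 0.31, where 8287 of all genes were above 0 and their median was 0.03. None of the 8 passed the test, where 2.11% of all genes did, and 3 had an unadjusted p under 0.05, against 14.5% of all genes. The groups were separate for 1 of the 8, Slc27a2 (0.77, adjusted p = 0.0661), against 9.26% of all genes. Whether a different share of tubular RNA takes part in the Slc22a18 value was not tested.

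Slc22a18 belongs to the Kcnq1 domain of distal chromosome 7, in which the paternally expressed RNA Kcnq1ot1 silences a group of genes on the paternal chromosome. The 5 tested genes of the list there were all higher in KO by their means, with a median difference of 0.31: Slc22a18, the potassium channel gene Kcnq1 (0.38 ± 0.13, SE; adjusted p = 0.169), the placental transcription factor gene Ascl2 (0.31 ± 0.11; adjusted p = 0.179), the tetraspanin gene Cd81 (0.30 ± 0.10; adjusted p = 0.158) and Cdkn1c (0.15 ± 0.09; adjusted p = 0.513). Only Slc22a18 passed over all genes, and 4 of the 5 had an unadjusted p under 0.05, where 14.5% of all genes did and 8287 of 13969 were above 0. Phlda2, a sixth member of the domain and a restrainer of placental growth, was too dim.

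Cdkn1c, the cyclin-dependent kinase inhibitor p57, marks podocytes in the kidney. Its ratios were 0.03, -0.02, 0.20 and -0.06 in WT1 to WT4 and 0.03, 0.27, 0.29 and 0.16 in KO1 to KO4. WT3 lay within the KO values and KO1 within the WT values, and the interval of the difference at the 95% level ran from -0.05 to 0.35. The podocyte markers as a list, of which Cdkn1c is one, had a median difference of 0.02.

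For Kcnq1 the WT ratios ran from -0.47 to 0.03 and the KO ratios from -0.11 to 0.39. Ascl2 ran from -0.08 to 0.29 in WT and from 0.23 to 0.58 in KO. Cd81 ran from -0.31 to 0.08 in WT and from 0.08 to 0.31 in KO, and its groups met within 0.01. In each of the 3 genes, at least 1 KO array lay at or below the highest WT array.

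The other 5 tested genes inside the domain did not all share this sign. Of them, Kcnq1ot1, Tspan32 and Tssc4 are also reported as imprinted in some mouse tissue. So are Nap1l4, Tnfrsf22, Tnfrsf23, Osbpl5 and Th beyond its ends. The shared sign thus describes the listed genes only, not all imprinted genes of the region. Kcnq1ot1 itself differed by 0.19 ± 0.21 (SE), Trpm5, a cation channel gene, by 0.22, and Tspan32, a tetraspanin gene, by 0.19, while Tssc4 differed by -0.10 and R74862 by -0.16. The median over these 5 was 0.19, and it was -0.08 without KO3. Beyond the Slc22a18 end of the domain, Nap1l4, Cars and Tnfrsf22 lay between -0.10 and -0.07, and Osbpl5 and Tnfrsf23 at 0.16 and 0.18. Beyond the Ascl2 end, Th lay at 0.06, Igf2os at -0.09, Igf2 at 0.29 and Mrpl23 at -0.07, while Tnnt3, a gene of skeletal muscle troponin, rose by 0.77 (adjusted p = 0.0092), and Tnni2, another such gene farther out, rose by 0.76 (adjusted p = 0.00337). Both rose by more than Slc22a18. The listed genes of the domain, as far as each setting tested them, were all above 0 under 20 of 21 alternative settings. The red channel alone was the exception, where Cdkn1c was at -0.04 and the median of the 5 was 0.06, below the median of all genes in that setting (0.22).

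**Figure D3:**
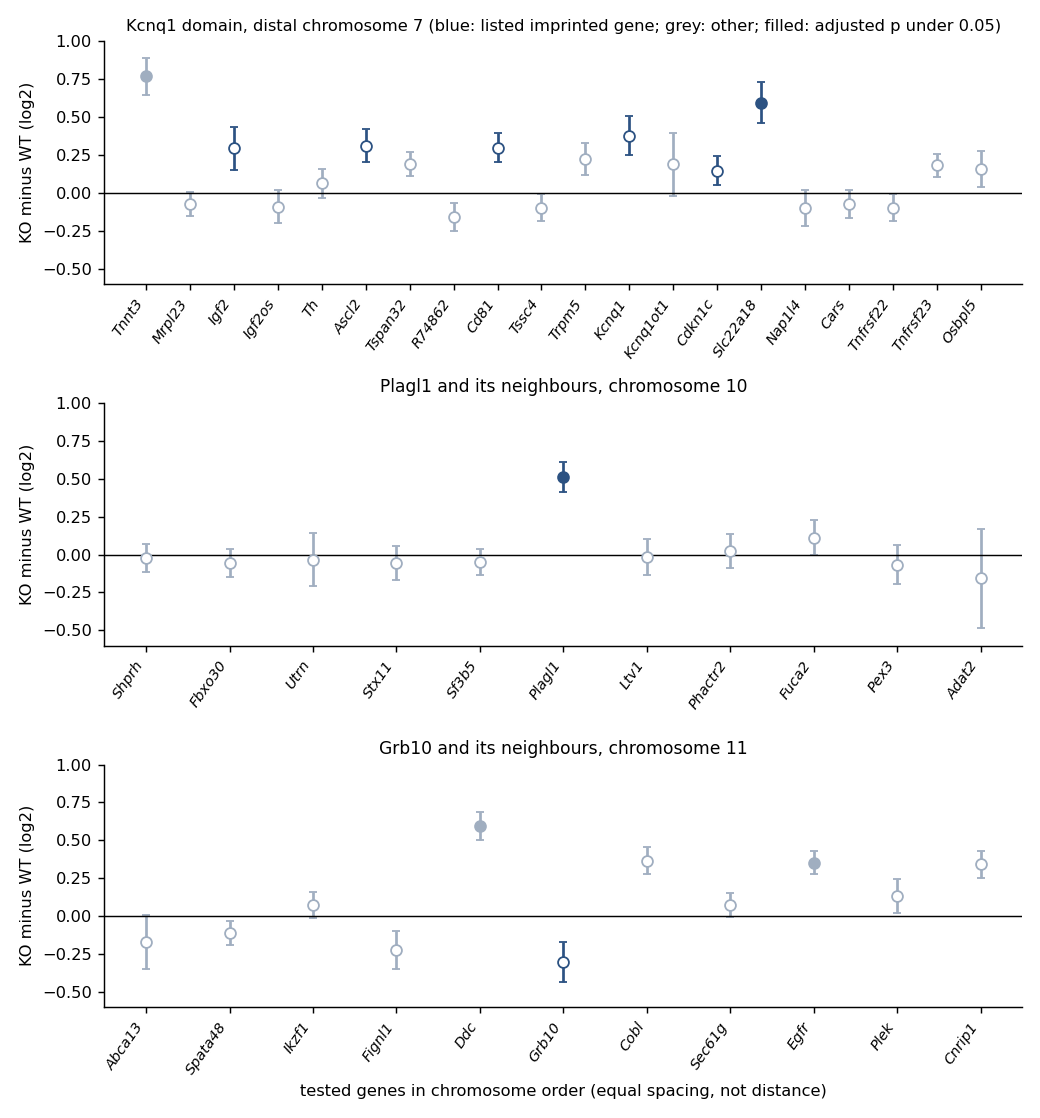
Difference between KO and WT (log2, mean ± SE, 4 arrays per group) for tested genes in chromosome order around the Kcnq1 domain, Plagl1 and Grb10. Blue points are the listed imprinted genes, and grey points are other genes, some of them also reported as imprinted. Filled points had an adjusted p under 0.05. Slc22a18 and Plagl1 are the filled blue points, and Grb10 (-0.30) lies between Ddc (0.59) and Cobl (0.37).

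The insulin-like growth factor genes come next to these. Igf2 encodes the main growth factor of the fetus and is expressed from the paternal allele. Its ratios were -0.05, 0.65, 0.65 and 0.51 in WT1 to WT4 and 0.67, 0.73, 0.84 and 0.71 in KO1 to KO4. The groups did not overlap, but WT2, the highest WT array, lay 0.01 below KO1, the lowest KO array, and WT1 stood apart from all others. The difference of 0.29 ± 0.14 (SE) did not pass (adjusted p = 0.363). It was 0.13 without WT1, 0.16 without WT1 and KO1, and 0.08 with sex as a term.

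Igf2r, the receptor that removes IGF2 for degradation and is expressed from the maternal allele, stood at -0.07, 0.21, -0.04 and -0.08 in WT1 to WT4 and at 0.06, 0.28, 0.69 and 0.13 in KO1 to KO4. The groups overlapped through WT2, and KO3 was the highest array. The difference was 0.28 ± 0.13 (SE; adjusted p = 0.347), and it was 0.15 without KO3. Airn, the non-coding RNA that silences Igf2r on the paternal allele, differed by 0.10.

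Grb10 encodes an adaptor that dampens signalling of the insulin and IGF1 receptors, from the maternal allele in most tissues. Its ratios were 0.14, 0.14, 0.16 and -0.22 in WT1 to WT4 and -0.56, -0.16, 0.05 and -0.31 in KO1 to KO4. WT4 lay among the KO values. The difference, -0.30 ± 0.13 (SE; adjusted p = 0.315), was the lowest among the 30 genes in the main setting. It was -0.17 without WT1 and KO1, and below 0 in all 21 alternatives, at -0.20 without KO1.

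Of the 10 tested genes around Grb10 on chromosome 11, 2 rose and none fell, where 1.57% of all genes rose and 0.544% fell. Ddc, the next gene, encodes aromatic amino acid decarboxylase, an enzyme of proximal tubule and chromaffin cells that is imprinted in the heart; it rose by 0.59 ± 0.09 (SE; adjusted p = 0.00763). Egfr rose by 0.35 ± 0.08 (adjusted p = 0.0352), and Cobl, an actin regulator that is imprinted in some tissues, differed by 0.37 ± 0.09 (adjusted p = 0.0537). The mean over the kept Cobl probes was lower, at 0.18 (adjusted p = 0.326). Of the 10 neighbours 7 were above 0. Of the 7 tested sympathetic and chromaffin markers, which include Ddc, 3 rose, where 1.57% of all genes did (the others were Phox2a, 0.56, and Slc18a1, 0.81). The medians over the 7 markers were -0.08 to 0.11 on the WT arrays and 0.10 to 0.35 on the KO arrays. Th, the defining enzyme of catecholamine synthesis, differed by 0.06. Of 9 adrenal cortex markers 4 were bright enough to be tested and none passed, where 2.11% of all genes did. None had an unadjusted p under 0.05 either, against 14.5% of all genes. The part of such cells in the Ddc value was not tested.

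**Figure D4:**
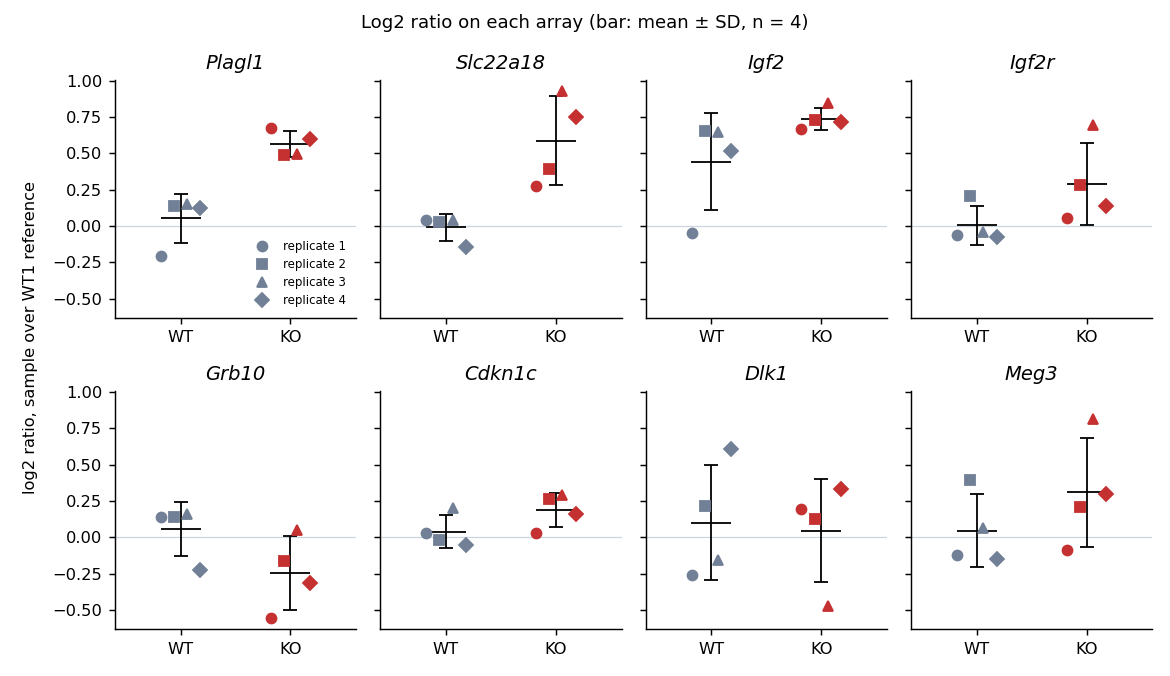
Log2 ratio over the WT1 reference on each of the 8 arrays for 8 imprinted genes, with the group mean ± SD (n = 4) as black bars and symbol shapes for the replicate number. Plagl1, Slc22a18 and Igf2 have KO values that all lie above the WT values, and in the other 5 genes the groups overlap.

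Of the further genes of the IGF axis (receptors, binding proteins, their proteases and RNA-binding regulators), 18 of 18 were tested and none passed, where 2.11% of all genes did, while 6 had an unadjusted p under 0.05, against 14.5% of all genes. The lowest p values were those of Igfbp6, a binding protein with preference for IGF2 (0.42 ± 0.10, SE; adjusted p = 0.0616), and Htra1, a secreted protease (0.42 ± 0.14; adjusted p = 0.153). Igfbp6 passed with the replicate number as a block (adjusted p = 0.0248) and without WT3 (0.48, adjusted p = 0.0484). The median over the 18 was 0.08.

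In the Dlk1-Dio3 domain of chromosome 12, Dlk1, a membrane-bound inhibitor of Notch signalling and of differentiation, stood at -0.26, 0.21, -0.16 and 0.61 in WT1 to WT4 and at 0.20, 0.13, -0.47 and 0.33 in KO1 to KO4. The groups overlapped throughout, with WT4 highest and KO3 lowest, and the difference was -0.05 ± 0.20 (SE; 95% interval -0.49 to 0.38). Meg3, the maternally expressed RNA of this domain, stood at -0.12, 0.39, 0.07 and -0.15 in WT1 to WT4 and at -0.09, 0.21, 0.81 and 0.30 in KO1 to KO4. KO3 was highest, WT2 lay among the KO values, and the difference was 0.26 ± 0.17 (SE; adjusted p = 0.542). It was 0.09 without KO3 and -0.08 with sex as a term. On KO3 these 2 genes of one domain thus lay at opposite ends, Dlk1 at -0.47 and Meg3 at 0.81. A second kept probe of each gene gave -0.17 for Dlk1 and 0.63 for Meg3 on KO3. The differences at these second probes were -0.25 ± 0.14 for Dlk1 and 0.17 ± 0.17 for Meg3 (SE), with groups that overlapped. Dio3, which inactivates thyroid hormone, was well above background on 3 KO arrays and 1 WT array and differed by 0.08 ± 0.15. Mirg, another maternally expressed RNA of the domain, differed by 0.19 and Dio3os by 0.21.

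In the Snrpn domain of central chromosome 7, the region of the Prader-Willi and Angelman syndromes, 6 genes were tested and none passed. None had an unadjusted p under 0.05. Over all genes 2.11% passed and 14.5% had an unadjusted p under 0.05. Magel2, which encodes a regulator of ubiquitin ligases, stood at 0.07, -0.13, -0.09 and 0.05 in WT1 to WT4 and at 0.13, 0.18, 0.14 and 0.08 in KO1 to KO4. Its groups did not overlap, with a gap of about 0.01 between WT1 and KO4, and the difference of 0.16 ± 0.08 (SE) did not pass (adjusted p = 0.412). Its probe was dim, with red signals of 84 to 119 units on arrays 2 to 4, near the negative control medians. Peg12 (-0.19) and Mkrn3 (-0.19), which lie side by side, were below 0. A second kept probe of Peg12 gave -0.04, and another Mkrn3 probe, too dim to be kept, gave 0.00. Ndn, a growth suppressor of neurons (0.03), Snrpn, a splicing protein gene (0.00), and Ube3a, a ubiquitin ligase gene (-0.05), were near 0. Next to Ube3a, Atp10a, a phospholipid flippase gene with a variable imprint, differed by -0.41 ± 0.10 (adjusted p = 0.0586). Atp10a passed with the replicate block (adjusted p = 0.047), without KO1 (-0.47, adjusted p = 0.0358) and without WT1 and KO1 (-0.51, adjusted p = 0.0465).

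Zdbf2, a zinc finger gene of chromosome 1, stood at -0.11, -0.08, -0.05 and -0.11 in WT1 to WT4 and at 0.00, 0.04, -0.03 and -0.01 in KO1 to KO4. The groups were separate but all values were small, and the difference was 0.09 ± 0.07 (SE; adjusted p = 0.672). Its probe was as dim as that of Magel2, with 92 to 114.5 units on the same arrays. It was -0.01 from the scanner software's ratios and -0.15 in the red channel alone without WT1 and KO1.

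Of the paternally expressed genes not yet described, Peg3, a zinc finger factor of growth and maternal behaviour, differed by 0.20 ± 0.11 (SE), Sgce, epsilon-sarcoglycan, by 0.18 ± 0.11, and Nnat, a small membrane protein of endocrine and nerve cells, by -0.21 ± 0.10. Mest, a hydrolase gene of mesoderm, differed by 0.04, the lipid phosphatase gene Inpp5f by 0.03, Impact, a regulator of translation, by 0.02 and Peg10, a retrotransposon-derived gene, by -0.05. Peg3 and Nnat had second kept probes at -0.04 and -0.06, and Peg10 was above background on 1 KO and 3 WT arrays. Of the remaining maternally expressed genes Zim1, a zinc finger gene next to Peg3, differed by 0.05, Ppp1r9a, neurabin, by -0.08 and Asb4, a ubiquitin ligase adaptor, by -0.14. Gnas, the stimulatory G protein subunit, differed by -0.02 ± 0.12; its tested probe was 1 of 3, and those with other accessions were not bright enough. None of these 11 genes passed, and their groups overlapped, where 2.11% of all genes passed and 9.26% had separate groups.

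The 17 tested paternally expressed genes had a median difference of 0.03, with 12 above and 5 below 0, and 1 passed (Plagl1). The 12 tested maternally expressed genes had a median of 0.21, with 8 above and 4 below 0, and 1 passed (Slc22a18). They include genes with a limited imprint: Ascl2 and Cd81 (placenta), Ube3a (neurons), Kcnq1 (early embryo, relaxed later in some tissues) and Ppp1r9a (some embryonic tissues). In the paternal class the imprint of Inpp5f concerns a brain variant. Whether these genes are imprinted in this kidney was not measured. The classes were not tested against each other, since their members share embryos and domains, and 5 of the 12 maternally expressed genes come from the Kcnq1 domain alone. The median of all genes was 0.03, and 2.11% of them passed. KO3 was the highest KO array for 9 of the 12 maternally expressed genes, and without it their median was 0.10. For the paternally expressed genes KO3 was the lowest KO array in 9 of 17 and WT4 the highest WT array in 10 of 17, and their median was 0.10 without KO3. Over all 13969 genes KO3 was the highest KO array for 4352 and the lowest for 4983. WT4 was the highest WT array for 4252 of them. Each of these was the largest such count of its group, so these arrays often lay at the ends for other genes too. With sex as a term the maternal median was 0.06, and in the red channel alone without WT1 and KO1 it was 0.05.

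**Figure D5:**
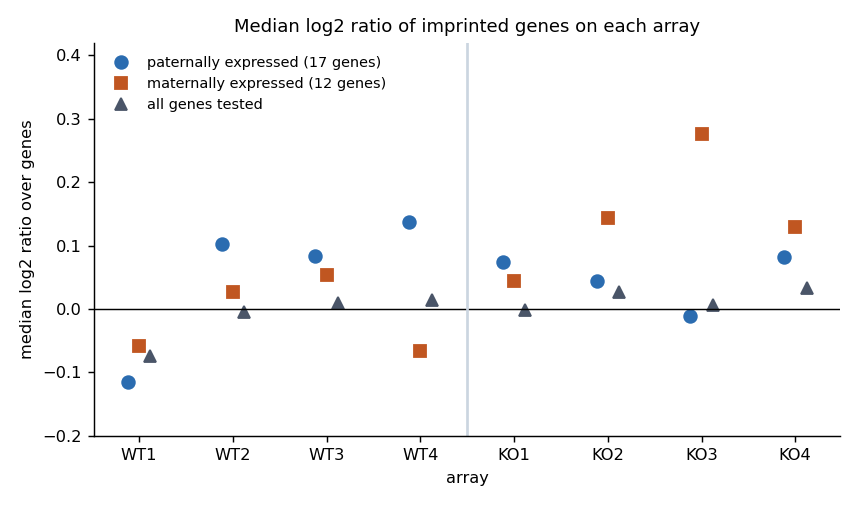
Median log2 ratio over the WT1 reference on each array for the 17 paternally and the 12 maternally expressed genes and for all 13969 tested genes. On KO3 the maternal median (0.28) is the highest of the 8 arrays while the paternal median is -0.01, and on WT4 the order is turned, with -0.07 and 0.14.

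The medians per array show how the classes parted on single embryos. The paternal median was -0.11, 0.10, 0.08 and 0.14 in WT1 to WT4 and 0.07, 0.04, -0.01 and 0.08 in KO1 to KO4. The maternal median was -0.06, 0.03, 0.05 and -0.07 in WT1 to WT4 and 0.04, 0.14, 0.28 and 0.13 in KO1 to KO4. WT4 and KO3 were also the arrays with the lowest (-0.79) and the highest (0.65) proximal tubule median, and the part of tubular maturation or cell makeup in the class medians was not tested.

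The genes that write, read and erase imprints were measured in the same fit. Of 29 listed genes, 26 were tested and none passed, where 2.11% of all genes did, while 2 had an unadjusted p under 0.05 (Tet2 and Arid4a), against 14.5% of all genes, and the median difference was 0.01. Tet2, a methylcytosine dioxygenase, differed by 0.54 ± 0.17 (SE, adjusted p = 0.148). Among the alternatives it passed only with the replicate block (adjusted p = 0.0354). Its mean over all kept probes was 0.36 (adjusted p = 0.208). Under the filter on all 8 arrays, where another Tet2 probe stood for the gene, the difference was 0.19 (adjusted p = 0.491). Arid4a, a chromatin regulator of the Snrpn domain, differed by -0.22 ± 0.10 (adjusted p = 0.318). The maintenance methyltransferase gene Dnmt1 differed by -0.07, Zfp57 by -0.13, Trim28 by -0.12, Zfp445 by 0.10 and the insulator gene Ctcf by 0.01.

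Among 48 other genes reported as imprinted in some mouse tissue, 35 were tested and 1 passed, Ddc, which is near the 2.11% of all genes. Of the 35, 25 were above and 10 below 0, with a median of 0.08, where 8287 of 13969 genes were above 0. The adjusted p of Ddc was under 0.05 in each of the 8 fits without 1 array (0.00811 to 0.0402). Its mean over all kept probes was 0.36 (adjusted p = 0.0399). The call was lost with sex as a term (adjusted p = 0.131), with median centring and in the red channel alone, and under the filter on all 8 arrays, where another Ddc probe stood for the gene and differed by 0.13 (adjusted p = 0.515). Cobl and Atp10a, given above, came next by p, and Pon3, a lactonase gene between Ppp1r9a and Asb4 on chromosome 6, differed by 0.31 ± 0.09 (SE; adjusted p = 0.096).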

How the data were processed

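Members, lists and tests were chosen with earlier results of these data known. Total RNA of 4 WT and 4 KO kidney pairs was labelled and hybridised on 8 2-colour arrays of 1 slide, per the labels' protocols and file headers. Per the submitters' processing notes and the file headers, the scanner files come from Agilent Feature Extraction 10.7.3.1. Its intensity columns hold median spot and local background signals per channel, not normalized by the authors. The deposited log10 ratios are the software's red over green after background subtraction and dye normalization. The value table of the series held the same log10 ratios, to within 0.0166 on the log2 scale, with column medians of 0. No dyes were swapped, so a dye effect equal on all arrays cancels between groups.

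In R 4.3.3, limma 3.58.1 corrected the background (normexp, offset 50) and normalized by loess within arrays, control spots having no weight. Outlier readings (1765, 0.372%) were dropped, no spot was saturated, and spots of a probe were averaged. Accessions of 27509 of 29150 RefSeq probes matched the GRCm38.p6 gene list, which was used for names, gene order and promoter sequences only, since the file headers name another build for the probes. A probe needed values on all 8 arrays and red above background, by the software's flag, on 4 or more. The brightest such probe stood for its gene. KO and WT were compared by lmFit and eBayes with Benjamini-Hochberg adjustment over 13969 genes at 0.05. A difference is on the log2 scale, with its moderated SE. The number of arrays limits the precision. Dot1l and the 2 imprinted genes that passed were also tested by exact permutation over 70 splits (two-sided). The fit was tested on simulated data.

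Same-numbered WT and KO arrays deviated together across genes (r = 0.14, 0.37, 0.26 and 0.30 for numbers 1 to 4) and share slide columns, so the number was tried as a block. Some arrays of other numbers deviated together as much (KO1 with WT4, r = 0.37; KO3 with WT2, r = 0.31), and the labels name no shared litter. Other alternatives changed background correction, normalization, channel, filter, probe rule, samples and sex as a term, and 1, the red channel alone without WT1 and KO1, was added after the data were seen. Parental classes and lists came from general knowledge. Named genes were all members, with each array's values for those that passed or did not overlap and for Igf2, Cdkn1c, Grb10, Igf2r, Dlk1 and Meg3, and in other lists those that passed or else the 2 with the smallest p. Others named, and the genes beside them, were chosen after their values were seen. The labels call the samples kidney pairs and the design text biological replicates.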

Additional observations from a re-analysis of the deposited data

Results flagged for a closer look

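In 8 of 62 groups of 4 arrays, 1 array stood far from the other 3 by Dixon's gap ratio at the 95% level. The groups were WT and KO for each of the 30 imprinted genes and Dot1l. For independent groups of like arrays this level flags about 1 in 20, but these groups share the same arrays. The share of flagged groups over all genes was not computed, so an excess was not measured. WT1 was low for Plagl1 (-0.20, the next array at 0.12) and for Peg3 (-0.23, the next at 0.16). WT4 was low for Grb10 (-0.22, the next at 0.14) and Slc22a18 (-0.15, the next at 0.03), and high for Mkrn3 (0.46, the next at 0.21). WT2, the male WT array, was high for Igf2r (0.21, the next at -0.04). KO1 was low for Zim1 (-0.17, the next at 0.11), and KO3 was low for Ube3a (-0.11, the next at 0.10). Of the 8, 6 were WT arrays, 3 of them WT4. No cause was tested.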

How the results depend on the processing

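Across 21 alternatives, the 30 genes gave 619 values: 540 kept their direction and side of the threshold, 56 changed sign, 23 (all of Plagl1 or Slc22a18) no longer passed, and none newly passed. The direction held throughout for 14 of the 30, among them Plagl1 (0.25 to 0.56), Slc22a18 (0.48 to 0.72), Igf2 (0.08 to 1.21) and Grb10 (-0.47 to -0.10). Aquantile leaves the ratios as they are, so its results equal the main ones. The count of 295 genes became 123 with the software's ratios (73 higher, 50 lower) and 123 with the series value table, 554 with the replicate block (443 higher, 111 lower), 12 with sex as a term (4 higher, 8 lower), 139 in the red channel alone without WT1 and KO1, 1 in the red channel alone (111 at an unadjusted p under 0.05) and 0 when loess gave way to median centring (177 in limma at an unadjusted p under 0.05). Leaving out 1 array gave 83 (without KO4) to 343 (without KO1), with 186, 149, 128, 141 and 196 without WT1, WT2, WT4, KO2 and KO3. The cause of these changes was not tested.

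The 2 imprinted genes that passed became 1 with the mean of kept probes and 1 without WT1 and KO1, and 0 with the software's ratios (6 at an unadjusted p under 0.05), the series value table (6), median centring (0), the red channel alone (1), sex as a term (5) and the red channel alone without WT1 and KO1 (10), all in limma; leaving out 1 array gave 0 to 2. The replicate block changed no call among the 30. With it 1 gene of the imprinting machinery, 1 of the IGF axis and 2 of the other imprinted genes passed. Leaving out 1 array gave 0 machinery genes (1 to 3 at an unadjusted p under 0.05 in limma), 0 to 1 IGF axis gene (1 without WT3) and 1 to 2 other imprinted genes (2 without KO1). Of the latter, 2 passed without WT1 and KO1, and 0 with median centring (1 at an unadjusted p under 0.05 in limma), the red channel alone (0), the filter on all 8 arrays (2), where another Ddc probe stood for the gene (0.13), and sex as a term (5). The paternal median became 0.25 in the red channel alone, where the median of all genes was 0.22, and 0.0039 to 0.10 without 1 array; the maternal median became 0.057 with sex as a term, 0.046 in the red channel alone without WT1 and KO1, and 0.10 to 0.24 without 1 array.

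Signs changed in 16 genes, Meg3 (0.26 in the report), Nnat (-0.21) and Peg12 (-0.19) among them. In the red channel alone the values were Dlk1 0.29, Zim1 -0.012, Cdkn1c -0.036, Nnat 0.0016, Ube3a 0.59, Impact -0.40, Asb4 0.72 and Peg12 0.57. With sex as a term, which sets KO against WT2 alone, they were Meg3 -0.083, Zim1 -0.16, Gnas 0.087, Ndn -0.18, Ube3a 0.031, Dio3 -0.26 and Inpp5f -0.13. The software's ratios gave Zim1 -0.12, Ndn -0.0120, Impact -0.0547, Zdbf2 -0.0058 and Inpp5f -0.10, and the series value table Zim1 -0.12, Ndn -0.0115, Impact -0.0548, Zdbf2 -0.0059 and Inpp5f -0.10. Without WT1 and KO1 they were Mest -0.038, Snrpn -0.11, Ndn -0.019 and Dio3 -0.037, and in the red channel alone without these arrays Mest -0.041, Snrpn -0.056, Impact -0.11 and Zdbf2 -0.15. The mean of kept probes gave Mest -0.013 and Snrpn -0.014, and median centring Gnas 0.064. Without 1 array Dlk1 ranged from -0.17 to 0.12, Zim1 from -0.029 to 0.12, Mest from -0.068 to 0.17, Gnas from -0.097 to 0.080, Snrpn from -0.11 to 0.064, Ndn from -0.058 to 0.10, Ube3a from -0.10 to 0.029, Impact from -0.048 to 0.062, Dio3 from -0.072 to 0.20 and Inpp5f from -0.079 to 0.088. Dim probes limit some values: Peg10, Dio3, Magel2 and Zdbf2 and the 3 untested genes were near the background.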
